A study of Homo sapiens with 8 samples.

Results

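Whole-cell RNA abundance was estimated for 9660 genes of U2OS cells, a human osteosarcoma line, after transfection with CHERP siRNA#2 or with an EGFP siRNA that has no target in these cells. The 9660 genes were those whose mean reached 20 reads per library on their skipped exon (SE), alternative 5′ splice site (A5SS) and alternative 3′ splice site (A3SS) events. They were 84.1% of the 11492 genes with such an event in whole cells. In all, 12055 genes had a splicing event of any type in whole cells or an SE, A5SS or A3SS event in the cytoplasm. The series held 8 poly(A) RNA-seq libraries, of which 4 were whole-cell libraries (2 per siRNA) and the rest came from the cytoplasm. Both siRNAs were used at 20 nM for 48 h in the same line, and no other difference between the groups is named. Batches of transfection, library preparation and sequencing are not given. CHERP was targeted by a single siRNA, so effects of CHERP depletion and effects of that siRNA on other transcripts cannot be told apart. The study's methods call the 2 libraries of a group biological replicates without saying which steps were separate. The p-values below rest on the spread between libraries of a group, shared over genes or events. For abundance, the spread of each gene was drawn toward a trend over genes, with 7.49 prior degrees of freedom.

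CHERP is an RS-domain protein of the nucleus that associates with the U2 snRNP, the spliceosome subunit that recognizes the branch point of an intron. Loss of a splicing factor can alter the amount of an mRNA in several ways, since an mRNA with a retained intron or a shifted reading frame may stay in the nucleus or be degraded by nonsense-mediated decay. U2OS cells carry functional p53 and divide rapidly, so their RNA is rich in transcripts of DNA replication and mitosis. In bulk RNA, fewer cells in a phase of the cell cycle and less RNA per cell cannot be told apart.

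Abundance is the sum over a gene's events of inclusion and skipping reads divided by their effective lengths, scaled between libraries and given here as scaled reads per kb. It grows with the number of events of a gene (median 5), so it was compared between siRNAs and never between genes. Reads on these events came to between 21443900 and 26006621 per library, and the median gene had 495 reads per library. Differences are log2 CHERP siRNA minus EGFP siRNA ± SE from limma with Benjamini-Hochberg adjustment over all genes, with 2 libraries per siRNA. The 2 values of a siRNA are listed in the order of the deposited tables, which carry no replicate number.

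CHERP itself, at chr19:16628705-16653248 (minus strand; hg19), had abundances of 551 and 336 in the EGFP libraries against 12.3 and 61.5 in the CHERP libraries. The groups did not overlap, and the difference was −3.46 ± 0.54 (adjusted p = 0.000938). Only 2 events of CHERP were counted, with 103 and 77 reads in the control libraries and 3 and 10 after depletion, and the estimate ran from −2.62 without the first CHERP library to −4.30 without the second. With a pseudocount of 0.1 in place of 0.01 it was −1.98.

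The line was checked against cell type markers. Of 16 mesenchymal and osteosarcoma markers, 11 had an event and 9 were tested. Their summed reads were 82562 and 95605 in the EGFP libraries against 126158 and 114622 in the CHERP libraries. Within that list CD44 (1.41), COL5A1 (1.26) and S100A6 (0.97) were higher and THY1 (−0.80) was lower, while COL5A1 lost its call without the first CHERP library (adjusted p = 0.0739). Of 10 epithelial markers, CDH1 and CLDN4 alone had an event, with summed reads of 2, 5, 22 and 17 in the 4 libraries, and none of 10 blood and endothelial markers had one. The part of the epithelial reads in any result was not tested.

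After CHERP siRNA, 1819 genes were higher (18.8% of those tested) and 1768 were lower (18.3%), so 3587 genes (37.1%) passed an adjusted p of 0.05. Of the called genes, 1206 differed by at least 2-fold. The median absolute difference of the called genes was 0.79, with quartiles of 0.56 and 1.16. The median over all genes was 0.01, and it shifted to −0.04 when libraries were scaled by their totals, which gave 1644 higher and 1961 lower genes. The libraries of the 2 siRNAs did not overlap for 6789 genes (70.3%). Within a group, the SD of the log2 difference between libraries was 0.45 for EGFP and 0.30 for CHERP siRNA. A fit without 1 CHERP library rests on the EGFP pair, and a fit without 1 EGFP library on the CHERP pair. Without either CHERP library the spread of each gene was set by the trend alone (infinite prior degrees of freedom). Calls over all genes were fewer in those fits and more without 1 EGFP library. A lost call or changed list count in such a fit thus need not reflect that library or that list. The count of called genes was 2226 without the first CHERP library and 2196 without the second.

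**Figure D1:**
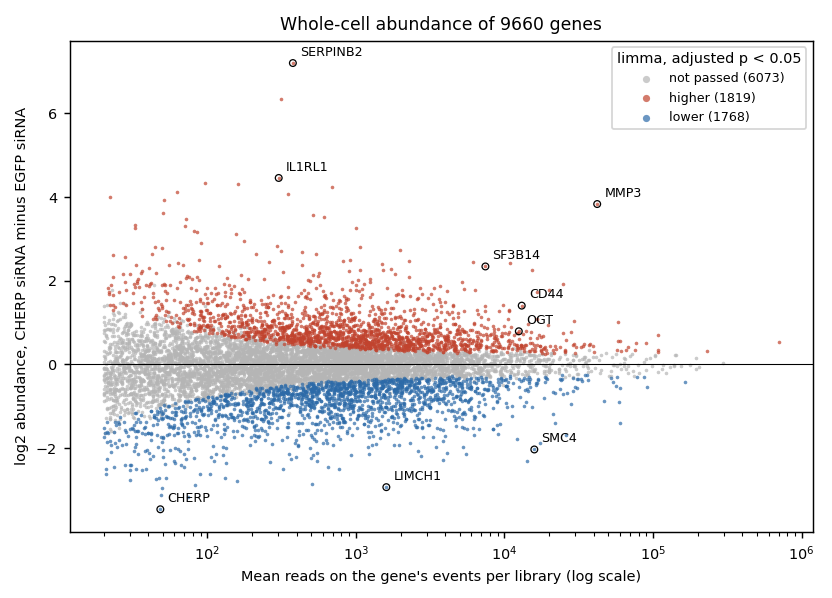
Each point is 1 of 9660 genes, with its mean reads per library on a log axis and its log2 abundance difference (CHERP siRNA minus EGFP siRNA) on the other axis. Red points (1819) were higher, blue points (1768) lower and grey points (6073) did not pass, and the differences reach from −3.46 for CHERP to 7.21 for SERPINB2.

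The 12 largest rises included a protease inhibitor, 2 matrix proteases and 2 interleukin receptors. Of the 25 genes made up of CHERP and the largest rises and falls, 15 moved by over 1.5 times when 0.1 replaced 0.01 as the value added before the log, and the sizes of genes with few reads on one side rest on it. SERPINB2, the plasminogen activator inhibitor PAI-2 (chr18:61538926-61571122), had 1 and 8 reads in the EGFP libraries against 797 and 700 reads in the CHERP libraries. Its abundance was 7.56 and 53.3 in the control libraries and 5117 and 4711 after depletion, a difference of 7.21 ± 0.45 (adjusted p = 7.37e-06). SERPINB2 was thus nearly undetected in control cells, and its difference was 6.28 without the first EGFP library and 8.12 without the second. With 0.1 added before the log it was 5.29.

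MMP3, the matrix metalloproteinase stromelysin-1 (chr11:102706532-102714340), was already abundant in control cells. Its values were 17713 and 21369 in the EGFP libraries against 280899 and 274643 in the CHERP libraries, a difference of 3.83 ± 0.11 (adjusted p = 1.94e-07). MMP12, macrophage elastase, stood at 22.2 and 0 in the control libraries and at 266 and 347 after depletion (4.13 ± 0.50, adjusted p = 0.000233). One control library had no read on the single MMP12 event, and the difference ran from 3.28 without the second EGFP library to 5.01 without the first. It was 1.87 when 0.1 was added before the log, 5.98 when 0.001 was added, and 8.64 on reads not divided by length.

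Receptors of the interleukin family rose as well. IL1RL1, the receptor of IL-33, went from 102 and 75.5 to 2185 and 2105 (4.46 ± 0.20, adjusted p = 1.44e-06). IL13RA2, a decoy receptor of IL-13, went from 210 and 237 to 4548 and 4242 (4.24 ± 0.14, adjusted p = 5.47e-07). In both genes the CHERP libraries lay close together and far above the control libraries.

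The remaining large rises were of mixed function. KYNU, kynureninase of tryptophan catabolism, went from 170 and 181 to 2793 and 3459 (4.07 ± 0.18). ABCC9, the SUR2 subunit of potassium channels sensitive to ATP, rose by 4.35 ± 0.31 and DAW1, a factor of ciliary dynein assembly, by 4.33 ± 0.26. ANKRD30B rose by 3.47 ± 0.34. With 0.1 added before the log these differences were 2.73, 3.24 and 2.03. The lncRNA RP11-1E6.1 on chromosome 4 had 12 and 0 reads with EGFP siRNA against 614 and 627 with CHERP siRNA (6.35 ± 0.63, and 5.03 without the second EGFP library). Its difference was 4.11 with 0.1 added, 8.12 with 0.001 added and 10.7 on reads not divided by length. DPY19L2 rose by 3.54 ± 0.17, but it shares sequence with pseudogene copies between which its reads could be split, so its value is uncertain.

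The 12 largest falls included a cytokine, a nuclear receptor and a regulator of the cell cycle. IL6 encodes interleukin-6 (chr7:22765503-22771621), and its abundance was 536 and 445 in the EGFP libraries against 29.1 and 68.9 in the CHERP libraries, a difference of −3.16 ± 0.37 (adjusted p = 0.000196), which was −1.99 with 0.1 added before the log. LIMCH1, an activator of non-muscle myosin II (chr4:41361624-41702061), had abundances of 12679 and 16150 against 1846 and 1885 (−2.93 ± 0.14, adjusted p = 2.15e-06). In LIMCH1 the 12 events with at least 10 reads all moved the same way. NR4A2, the nuclear receptor NURR1, went from 589 and 560 to 113 and 41.9 (−2.87 ± 0.39, −3.49 without the first CHERP library and −1.96 with 0.1 added before the log).

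E2F8, a repressor of the E2F family, went from 865 and 798 to 104 and 120 (−2.79 ± 0.22, adjusted p = 2.25e-05), and CCDC34, a coiled-coil protein, from 2999 and 3764 to 529 and 397 (−2.85 ± 0.19). TNFRSF11B, the decoy receptor osteoprotegerin of bone, went from 3471 and 4133 to 678 and 680 (−2.46 ± 0.15). ZNF268, a zinc finger protein, fell by 2.504 ± 0.14 on the log2 scale. ARHGEF39, a guanine nucleotide exchange factor, was at −2.505 ± 0.24 and PHF7, a PHD finger protein, at −2.72 ± 0.26. ELOVL4, an elongase of very long chain fatty acids, was at −2.63 ± 0.27, and PRSS16, a serine protease, at −2.46 ± 0.32. NPPA-AS1 fell by 2.61 ± 0.28, but it is antisense to NPPA, and whether the counting used strand is not given in the sources used here.

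**Figure D2:**
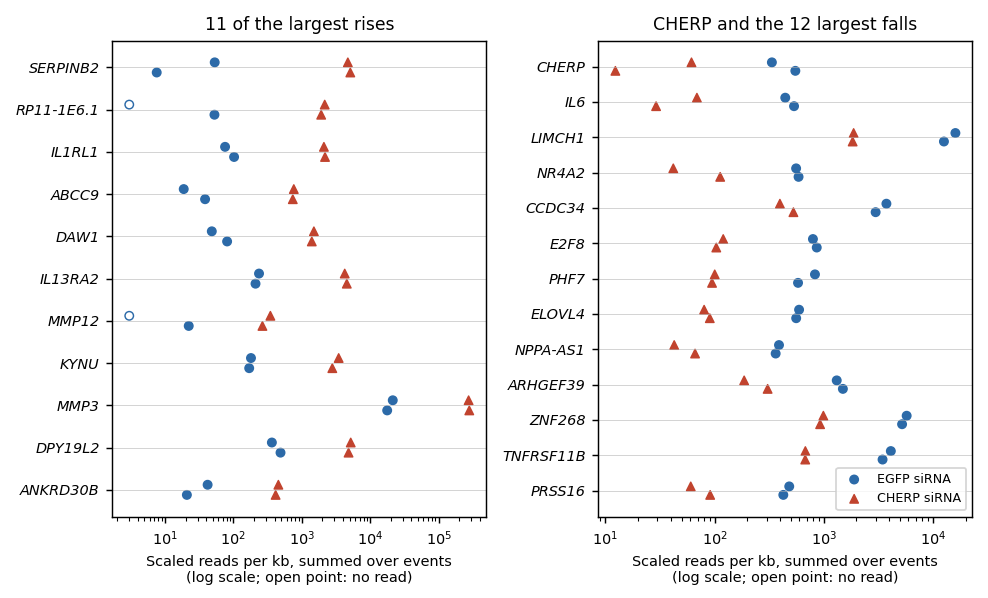
Abundance in each library (scaled reads per kb, log axis) of 11 of the 12 genes with the largest rise, left, and of CHERP and the 12 genes with the largest fall, right; circles are EGFP siRNA and triangles CHERP siRNA libraries, and an open circle drawn at the left edge stands for a library with no read. In every gene shown the libraries of the 2 siRNAs were separate, from SERPINB2 (7.56 and 53.3 against 5117 and 4711) to PRSS16 (427 and 484 against 91.2 and 60.5).

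Functions were described through 30 lists of genes, each read against the shares over all genes given above. Most genes of chromosome segregation fell. Of 49 tested genes of the kinetochore, the chromosomal passenger complex and the spindle checkpoint, 41 were lower, 1 was higher and 7 did not pass, with a median of −0.83. CENPE, the kinesin that carries chromosomes to the spindle equator, was 11820 and 14812 in the EGFP libraries against 3383 and 2908 in the CHERP libraries (−2.07 ± 0.14, adjusted p = 9.12e-06). NUF2, a subunit of the NDC80 complex that holds microtubules, was 24371 and 28827 against 6261 and 7235 (−1.98 ± 0.12). CENPA, the histone H3 variant that marks the centromere, was 2301 and 2024 against 543 and 690 (−1.80 ± 0.19), and SGOL1, shugoshin, which protects centromeric cohesion, fell by 1.62 ± 0.16. The exception was PMF1, a subunit of the MIS12 complex, at 0.55.

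Of 68 genes of mitotic kinases, cyclins and the spindle, 57 were lower, none was higher by limma (0 at an unadjusted p under 0.05) and 11 did not pass, with a median of −1.197. KIF20A, a kinesin of cytokinesis, was 6072 and 6790 in the EGFP libraries against 1365 and 1548 in the CHERP libraries (−2.14 ± 0.13, adjusted p = 6.63e-06). SMC4, a core subunit of condensin, was 74992 and 97892 against 20520 and 21379 (−2.03 ± 0.13). MYBL2, which activates late cell cycle genes, was 27242 and 25261 against 6594 and 6739 (−1.97 ± 0.10), and KIF14, another kinesin of cytokinesis, fell by 2.17 ± 0.14. In all of these the control libraries lay more than 3-fold above the CHERP libraries. The genes that did not pass included 6 core subunits of the anaphase-promoting complex (ANAPC1, ANAPC4, ANAPC5, ANAPC7, CDC16 and CDC27), between −0.37 for ANAPC4 and 0.13 for ANAPC7.

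DNA replication genes fell with them. Of 64 tested, 47 were lower, 2 were higher and 15 did not pass, with a median of −0.90. RRM2, the regulated subunit of ribonucleotide reductase, was 37286 and 31617 in the EGFP libraries against 7453 and 8044 in the CHERP libraries (−2.15 ± 0.11, adjusted p = 3.54e-06). MCM6, a subunit of the replicative helicase, was 22037 and 24357 against 5751 and 5003 (−2.11 ± 0.11), and CLSPN, claspin of the replication checkpoint, fell by 1.97 ± 0.14. All 6 subunits of the MCM2-7 helicase were lower, between −2.11 for MCM6 and −1.29 for MCM3, with MCM2 at −1.94, MCM4 at −1.30, MCM5 at −1.45 and MCM7 at −1.44. The origin recognition complex was divided, since ORC1 (−1.58) and ORC6 (−1.28) fell and ORC2, ORC3, ORC4 and ORC5 did not pass. The 2 genes that rose were GMNN (1.197), geminin, the inhibitor of origin licensing, and PRIM2 (0.46), the large primase subunit.

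Of 46 genes of homologous recombination and the Fanconi pathway, 28 were lower, 2 were higher and 16 did not pass, with a median of −0.72. BARD1, the partner of BRCA1, was 592 and 649 in the EGFP libraries against 142 and 231 in the CHERP libraries (−1.72 ± 0.32, adjusted p = 0.00275), and RBBP8, the end resection factor CtIP, was 18879 and 21438 against 7018 and 7671 (−1.45 ± 0.11). FANCG and FANCE, subunits of the Fanconi core complex, fell by 1.52 ± 0.14 and 1.48 ± 0.21. The higher genes were RAD51C (0.96) and ATR (0.53). The damage kinase ATM, at −0.19, did not pass.

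The promoters of these genes were read because the lists moved together. Promoters of mitotic genes are known to carry a cell cycle homology region (CHR, TTTGAA) together with CCAAT boxes, and promoters of replication genes carry E2F sites. RefSeq windows of 300 bases on GRCh38.p14, reaching 250 bases before and 50 bases after the annotated start, were matched to 7214 of the 9660 genes, and the 5000 genes with exactly 1 window were used. Printed below are the 150 bases before the start of the 2 genes per list with the largest falls whose printed stretch held the CHR (kinetochore and mitotic lists) or an E2F site (replication list). Capitals mark CHR, E2F and CCAAT matches on either strand.
CENPA (chr2:26785906-26786055, plus strand, CHR near the start and 1 CCAAT box): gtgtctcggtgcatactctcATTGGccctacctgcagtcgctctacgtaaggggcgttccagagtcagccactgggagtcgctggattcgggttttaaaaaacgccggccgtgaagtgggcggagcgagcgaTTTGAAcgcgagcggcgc
HJURP (chr2:233854536-233854685, minus strand): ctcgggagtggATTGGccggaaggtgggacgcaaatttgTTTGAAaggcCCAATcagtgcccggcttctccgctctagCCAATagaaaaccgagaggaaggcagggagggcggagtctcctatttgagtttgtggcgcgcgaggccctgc
ESPL1 (chr12:53268149-53268298, plus strand): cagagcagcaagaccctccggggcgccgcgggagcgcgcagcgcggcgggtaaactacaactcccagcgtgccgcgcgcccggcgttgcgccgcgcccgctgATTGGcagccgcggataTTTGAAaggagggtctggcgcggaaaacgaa
MKI67 (chr10:128126424-128126573, minus strand; the last CHR overlaps a CCAAT match): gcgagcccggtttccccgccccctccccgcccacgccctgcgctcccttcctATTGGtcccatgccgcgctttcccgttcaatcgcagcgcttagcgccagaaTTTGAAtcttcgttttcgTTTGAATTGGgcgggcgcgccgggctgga
MCM6 (chr2:135876444-135876593, minus strand, E2F and CCAAT): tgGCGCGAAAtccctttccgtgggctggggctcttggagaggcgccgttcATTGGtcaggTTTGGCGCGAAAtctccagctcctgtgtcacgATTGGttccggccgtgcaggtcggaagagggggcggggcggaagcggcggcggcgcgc
GINS2 (chr16:85688955-85689104, minus strand, E2F): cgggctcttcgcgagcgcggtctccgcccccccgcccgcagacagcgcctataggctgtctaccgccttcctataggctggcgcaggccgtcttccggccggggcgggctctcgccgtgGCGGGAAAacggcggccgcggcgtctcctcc

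Among the 4 genes printed for the CHR, HJURP, the chaperone that loads CENPA, fell by 1.59, ESPL1, the protease separase, by 1.87 and MKI67, the proliferation marker Ki-67, by 1.63. The CHR was in the windows of 468 of the 5000 genes (9.36%), and in 16.0% of all 22114 single-window promoters of the table. It was in 155 of 927 lower genes (16.7%), in 73 of 951 higher genes (7.68%) and in 240 of 3122 genes that did not pass (7.69%). By list it was in 31 of 47 mitotic genes and 16 of 31 kinetochore genes, but in 2 of 39 replication genes. Among lower genes outside the kinetochore, mitotic, replication and repair lists, 107 of 817 (13.1%) held it.

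E2F sites were searched as TTTGGCGC, TTTCCCGC, TTTCGCGC and TTTGCCGC on both strands. They were in 6.04% of the 5000 genes and in 3.18% of all single-window promoters. Of lower genes 90 of 927 (9.71%) held one, of higher genes 40 of 951 (4.21%) and of genes that did not pass 172 of 3122 (5.51%). Replication genes held one in 19 of 39 windows, and mitotic genes in 5 of 47. A CCAAT box was in 38.5% of the 5000 genes (36.2% of all promoters), in 36 of 47 mitotic genes, in 44.7% of lower genes and in 35.1% of higher genes. The AP-1 site (TGACTCA or TGAGTCA) was in 3.68% of higher and 3.13% of lower genes, the CRE (TGACGTCA) in 4.31% and 3.67%, and the amino acid response element (TGATGCAA) in 0.315% and 0.431%, beside 5.12%, 2.01% and 0.990% of all single-window promoters. A match describes the letters of the window and not a bound site.

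**Figure D3:**
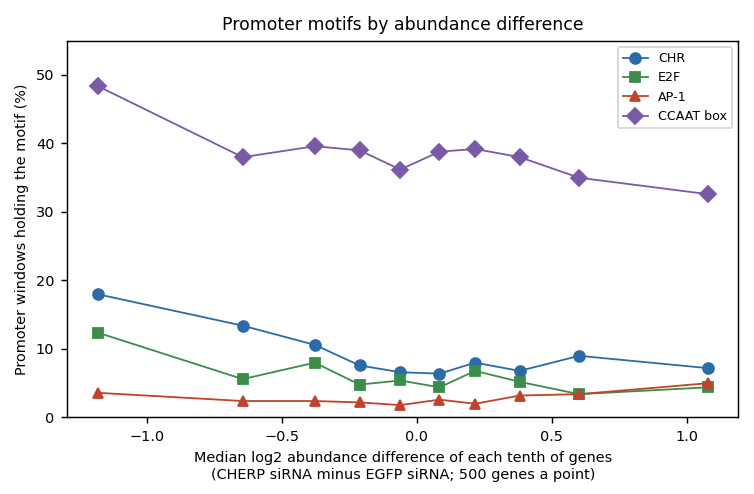
Share of promoter windows holding a motif (%), for the 5000 genes with 1 window split into bins of 500 genes by their abundance difference; each point stands at the median log2 difference of its bin. CHR is at 18.0% in the lowest bin, 6.6% in a middle bin and 7.2% in the highest. In the same bins E2F is at 12.4%, 5.4% and 4.4% and the CCAAT box at 48.4%, 36.2% and 32.6%. AP-1 is at 3.6% in the lowest bin, 1.8% in a middle bin and 5.0% in the highest.

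p53 target genes moved the other way. Of 27 tested, 13 were higher, none was lower by limma (3 at an unadjusted p under 0.05) and 14 did not pass, with a median of 0.54. MDM2, the ubiquitin ligase that limits p53, was 13015 and 12323 in the EGFP libraries against 27216 and 28270 in the CHERP libraries (1.13 ± 0.10, adjusted p = 3.95e-05). FAS, a death receptor, was 1082 and 943 against 3004 and 3689 (1.71 ± 0.17), and KITLG, the ligand of KIT, rose by 1.59 ± 0.16. CDKN1A, the cell cycle inhibitor p21, was 3396 and 1716 against 5677 and 5431 (1.198 ± 0.27, adjusted p = 0.00657). The 2 control libraries of CDKN1A stood apart from each other, and its call was lost without the trend of the variance (adjusted p = 0.0639) and with the mean over events (adjusted p = 0.0766). Other genes of the list that are bound by p53, BAX (0.14) and DDB2 (−0.32), did not pass.

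Targets of ATF4, the transcription factor of the integrated stress response, rose in 19 of 35 genes, fell in 1 (SLC38A2, −0.48) and did not pass in 15, with a median of 0.45. SARS, the seryl-tRNA synthetase, was 21087 and 21369 in the EGFP libraries against 50282 and 52326 in the CHERP libraries (1.27 ± 0.09, adjusted p = 1.48e-05). SLC7A11, the cystine transporter, was 456 and 588 against 1512 and 1235 (1.38 ± 0.21, adjusted p = 0.00091). Synthetases and enzymes of serine and asparagine synthesis made up much of the list, among them GARS (0.85), WARS (0.75), ASNS (0.84), PSPH (0.97) and PSAT1 (0.73). DDIT3, the stress factor CHOP, at 0.02, and DDIT4, at −0.40, did not pass. ATF3, at 236 and 278 against 554 and 734 (1.28 ± 0.31, adjusted p = 0.00943), lost its call without the second CHERP library (adjusted p = 0.135), and ALDH1L2 (2.00 ± 0.42, adjusted p = 0.00504) without the first (adjusted p = 0.0567). Fewer ATF4 targets were called higher when 1 CHERP library was left out, as over all genes.

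Among 30 chaperones and unfolded protein response genes of the endoplasmic reticulum, 9 were higher, 1 was lower (HSP90B1, −0.39) and 20 did not pass, with a median of 0.13. CALR, the calcium-binding chaperone calreticulin, was 9253 and 7286 in the EGFP libraries against 20377 and 19087 in the CHERP libraries (1.26 ± 0.13, adjusted p = 8.29e-05). ERO1L, an oxidase of disulfide bond formation, rose by 1.00 ± 0.11 and EDEM1, of misfolded glycoprotein disposal, by 0.88 ± 0.17. The higher genes of this list numbered 3 without the first CHERP library and 4 without the second, and P4HB (0.47 ± 0.10) was among those lost (adjusted p = 0.0548 and 0.0671).

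CHERP is also known from calcium release by the inositol trisphosphate receptor, so 35 calcium handling genes were read. Of these 11 were higher, 7 were lower and 17 did not pass, with a median of 0.07. CAMK2D, a calmodulin-dependent kinase, was 5069 and 3671 in the EGFP libraries against 11077 and 10427 in the CHERP libraries (1.31 ± 0.16, adjusted p = 0.000244). MICU2, a regulator of the mitochondrial calcium uniporter, was 10687 and 13085 against 5647 and 5744 (−1.05 ± 0.13). The receptors ITPR1 (0.60) and ITPR2 (0.91 ± 0.31, adjusted p = 0.043) were higher and ITPR3 (0.18) did not pass. ITPR2 was at 1.06 without the first CHERP library and at 0.77 without the second. Its call was lost when libraries were scaled by their totals (adjusted p = 0.0567). NFATC4, a calcineurin-dependent factor, was lower (−1.49 ± 0.38) but not without the second CHERP library (adjusted p = 0.12). The higher genes numbered 5 without the second CHERP library.

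Among genes of splicing more were lower than higher. In the list of U2 snRNP proteins and CHERP partners, which holds CHERP itself, 10 of 28 were lower, 2 were higher and 16 did not pass, with a median of −0.26. Both higher genes are core U2 components. SF3B14, the p14 subunit of SF3B that touches the branch point adenosine, was 8547 and 9201 in the EGFP libraries against 45437 and 44634 in the CHERP libraries (2.34 ± 0.10, adjusted p = 9.74e-07), and SF3A3 was 18061 and 21653 against 34271 and 35521 (0.82 ± 0.11, adjusted p = 0.000476). HTATSF1, a U2-associated factor, fell by 1.25 ± 0.21. The U2AF large subunit U2AF2 (−0.64) and RBM17 (−0.39), a known partner of CHERP, were lower, while SF3B1 (−0.12) and U2SURP (−0.28) did not pass. The lower genes numbered 2 without the first CHERP library and 3 without the second.

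Of 68 other core spliceosome genes, 20 were lower, 6 were higher and 42 did not pass, with a median of −0.13. CWC27 was at −1.198 ± 0.20, ZMAT2, a tri-snRNP protein, at −1.16 ± 0.13 and WBP11 at −1.04 ± 0.10, and DDX41, a helicase of the spliceosome, rose by 0.89 ± 0.14. The lower genes numbered 8 without the first CHERP library and 12 without the second. Of 37 SR proteins, RS-domain proteins and their kinases, 16 were lower, none was higher by limma (0 at an unadjusted p under 0.05) and 21 did not pass, with a median of −0.26. RSRC1 was 3856 and 4090 in the EGFP libraries against 1816 and 1839 in the CHERP libraries (−1.12 ± 0.14, adjusted p = 0.000329), and LUC7L3, SRSF11 and RSRC2 fell by 0.88 ± 0.10, 0.83 ± 0.12 and 0.82 ± 0.11. Among classical SR proteins SRSF1 (−0.43), SRSF3 (−0.43) and SRSF10 (−0.48) were lower, and SRSF2 (−0.15), SRSF5 (0.13) and SRSF7 (−0.05) did not pass.

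In the hnRNP list 6 of 28 were higher (21.4%), 5 were lower (17.9%) and 17 did not pass (median −0.18). These shares are near those over all genes (18.8% and 18.3%). HNRNPUL1 was 7332 and 5574 in the EGFP libraries against 17598 and 18659 in the CHERP libraries (1.502 ± 0.14, adjusted p = 4.5e-05), and HNRNPAB rose by 1.23 ± 0.11. HNRNPDL fell by 0.94 ± 0.09, and EWSR1 (−0.41), PCBP2 (−0.38), HNRNPR (−0.34) and HNRNPA1 (−0.30) were the other lower members. Fewer members were called higher when 1 CHERP library was left out, as over all genes. HNRNPH1 (0.45 ± 0.09) was at 0.43 without the first CHERP library and at 0.47 without the second. Its call was lost without the trend of the variance (adjusted p = 0.0567).

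Factors of mRNA export and decay are the steps after splicing. Of 25 genes of nonsense-mediated decay and the exon junction complex, 6 were lower, 3 were higher and 16 did not pass, with a median of 0.02. UPF3B, which joins the junction complex to UPF2, was 2846 and 3783 in the EGFP libraries against 1086 and 951 in the CHERP libraries (−1.68 ± 0.19, adjusted p = 0.000149), and UPF2 fell by 0.96 ± 0.10 and the decapping enzyme DCP2 by 1.18 ± 0.18. GSPT1, the release factor eRF3a, was 23288 and 24384 against 57705 and 59174 (1.29 ± 0.09), and XRN2 (0.89) and SMG5 (0.38) were also higher. Of 29 mRNA export genes, 10 were lower and 2 were higher, with a median of −0.14. THOC2 (−1.01 ± 0.13) and CHTOP (−0.90 ± 0.15) of the TREX complex fell, as did DDX39A (−1.04 ± 0.13). THOC5 (0.69 ± 0.11) of the TREX complex rose, as did RAN (0.41). The lower export genes numbered 4 without the first CHERP library.

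Of 30 nuclear pore genes, 10 were lower and 5 were higher, with a median of −0.03. NUP62, a nucleoporin of the central channel, was 6539 and 6873 in the EGFP libraries against 2713 and 3492 in the CHERP libraries (−1.12 ± 0.15), and NUP155 fell by 0.86 ± 0.11. NUPL1, which encodes NUP58 and NUP45 of the channel that holds NUP62, was 2112 and 2186 against 7138 and 7537 (1.77 ± 0.13, adjusted p = 1.31e-05). SEC13 (1.37 ± 0.12), NUPL2 (0.70), NDC1 (0.52) and NUP160 (0.44) were the other higher members. The lower pore genes numbered 6 without the first CHERP library and 5 without the second.

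Of 18 host genes of snoRNAs, 7 were higher and 2 were lower, with a median of 0.35. Many of their spliced RNAs are short-lived substrates of nonsense-mediated decay. DANCR was 410 and 383 in the EGFP libraries against 1422 and 1180 in the CHERP libraries (1.68 ± 0.22, adjusted p = 0.000373), SNHG15 rose by 0.85 ± 0.11 and ZFAS1 by 0.72 ± 0.11, and GAS5 was at 0.69. CEP95 (−1.003 ± 0.12) and TAF1D (−0.71) were lower.

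Most ribosomal protein genes did not pass. Of 78, 12 were higher, 2 were lower and 64 did not pass, with a median of 0.05. RPL5 was 384710 and 423060 in the EGFP libraries against 282835 and 271731 in the CHERP libraries (−0.54 ± 0.10, adjusted p = 0.00197), and RPL23A was at −0.45. RPL27A, at 344173 and 321404 against 486329 and 462277, was higher (0.51 ± 0.09, adjusted p = 0.00238). Fewer members were called higher when 1 CHERP library was left out and more without the second EGFP library, as over all genes. Processed pseudogenes of ribosomal proteins can take part of their reads. RPL5 itself was not called without the second CHERP library (adjusted p = 0.0781), nor RPL27A without the first (adjusted p = 0.0964).

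Of 64 genes of the respiratory chain, 22 were higher, none was lower by limma (2 at an unadjusted p under 0.05) and 42 did not pass, with a median of 0.26. NDUFS4, a subunit of complex I, was 11918 and 16083 in the EGFP libraries against 31342 and 28629 in the CHERP libraries (1.11 ± 0.14, adjusted p = 0.00032), and NDUFB10 was 790 and 910 against 2246 and 1670 (1.18 ± 0.21). NDUFA11 rose by 0.87 ± 0.16. The count of higher members was 11 without the first CHERP library, 13 without the second and 7 without the trend of the variance.

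Of 54 genes of lysosomes and autophagy, 20 were higher and 3 were lower (ATG5, −0.71, NPC2, −0.43, and TPP1, −0.40), with a median of 0.36. ATP6V0D1, a subunit of the proton pump, was 6304 and 4919 in the EGFP libraries against 16266 and 17347 in the CHERP libraries (1.59 ± 0.13, adjusted p = 3.21e-05). ATG16L1 (0.90 ± 0.15) and ATG7 (0.85 ± 0.12), both of autophagosome formation, and ASAH1, acid ceramidase (0.89 ± 0.15), rose. The higher members numbered 12 without the first CHERP library. Of 38 proteasome genes, 15 were higher and 6 were lower, with a median of 0.16. PSMD8, a subunit of the regulatory particle, was 6096 and 6925 against 16723 and 15978 (1.33 ± 0.11), and the catalytic subunit PSMB5 rose by 0.96 ± 0.12. The higher proteasome genes numbered 5 without the first CHERP library and 6 without the second.

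Of 92 genes of the secretory pathway and vesicle transport, 24 were higher and 9 were lower, with a median of 0.13. TMED2, a cargo receptor of COPI vesicles, was 6309 and 6249 in the EGFP libraries against 17937 and 19226 in the CHERP libraries (1.56 ± 0.10, adjusted p = 8.81e-06), and EXOC4 of the exocyst rose by 1.74 ± 0.26. SNX5, a sorting nexin, fell by 1.30 ± 0.10 and the golgin GOLGA4 by 1.19 ± 0.10. Higher members came to 11 without the first CHERP library and 10 without the second.

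Of 33 genes of sterol and fatty acid synthesis, 13 were higher and 6 were lower, with a median of 0.15. SCD, stearoyl-CoA desaturase, was 16027 and 14103 in the EGFP libraries against 39864 and 40852 in the CHERP libraries (1.42 ± 0.10, adjusted p = 1.3e-05), and SQLE, squalene epoxidase, rose by 0.96 ± 0.09. The desaturase FADS1 fell by 0.94 ± 0.13. Members called higher were 8 without either CHERP library. Of 32 genes of glycolysis and hypoxia, 9 were higher and 4 were lower (ANKRD37, BNIP3L, P4HA2 and LDHA), with a median of 0.11. PFKM, muscle phosphofructokinase, was 3889 and 3752 against 12496 and 11927 (1.67 ± 0.11, adjusted p = 9.12e-06), GPI rose by 0.89 ± 0.11 and ANKRD37, a hypoxia target, fell by 1.86 ± 0.35. The higher members of that list numbered 5 without the first CHERP library.

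Of 40 genes of the extracellular matrix, 13 were higher and 7 were lower, with a median of 0.32. TNC, tenascin-C, was 21668 and 18793 in the EGFP libraries against 66977 and 67120 in the CHERP libraries (1.73 ± 0.10). NID1, nidogen-1 of basement membranes, was 2795 and 2733 against 849 and 801 (−1.73 ± 0.15), and COL8A1 fell by 1.70 ± 0.27. More members were called higher without the first EGFP library, as over all genes.

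Of 55 genes of the actin cytoskeleton and adhesion, 21 were higher and 8 were lower, with a median of 0.30. ACTN1, an actin crosslinker of stress fibres, was 10788 and 9870 in the EGFP libraries against 35814 and 35763 in the CHERP libraries (1.79 ± 0.10, adjusted p = 4.25e-06), and FLNC, filamin C, was 1289 and 699 against 4376 and 4061 (2.14 ± 0.25). VASP rose by 1.33 ± 0.17, and CD44, the hyaluronan receptor, by 1.41 ± 0.10. Higher members came to 12 without the second CHERP library. Of 20 targets and members of the YAP and TGF-beta pathways, 6 were higher and 3 were lower (AJUBA, TEAD1 and WWC1), with a median of 0.19. F3, tissue factor, rose by 1.89 ± 0.18 and TGFBR2, the TGF-beta receptor, by 1.37 ± 0.24. The YAP target CYR61, at 0.00, did not pass, and the higher members numbered 3 without the second CHERP library. AJUBA, lower by limma (−0.89 ± 0.27), was not called without the first CHERP library (adjusted p = 0.273).

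Of 23 interferon response genes, 7 were lower and 2 were higher (ISG20, 0.87, and TRIM25, 0.57), with a median of −0.52. IFI44 was 712 and 626 in the EGFP libraries against 157 and 166 in the CHERP libraries (−1.98 ± 0.24), IFI44L fell by 2.01 ± 0.39 and IRF1 by 1.04 ± 0.19. More members were called lower without the first EGFP library and fewer without the second CHERP library, as over all genes.

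**Figure D4:**
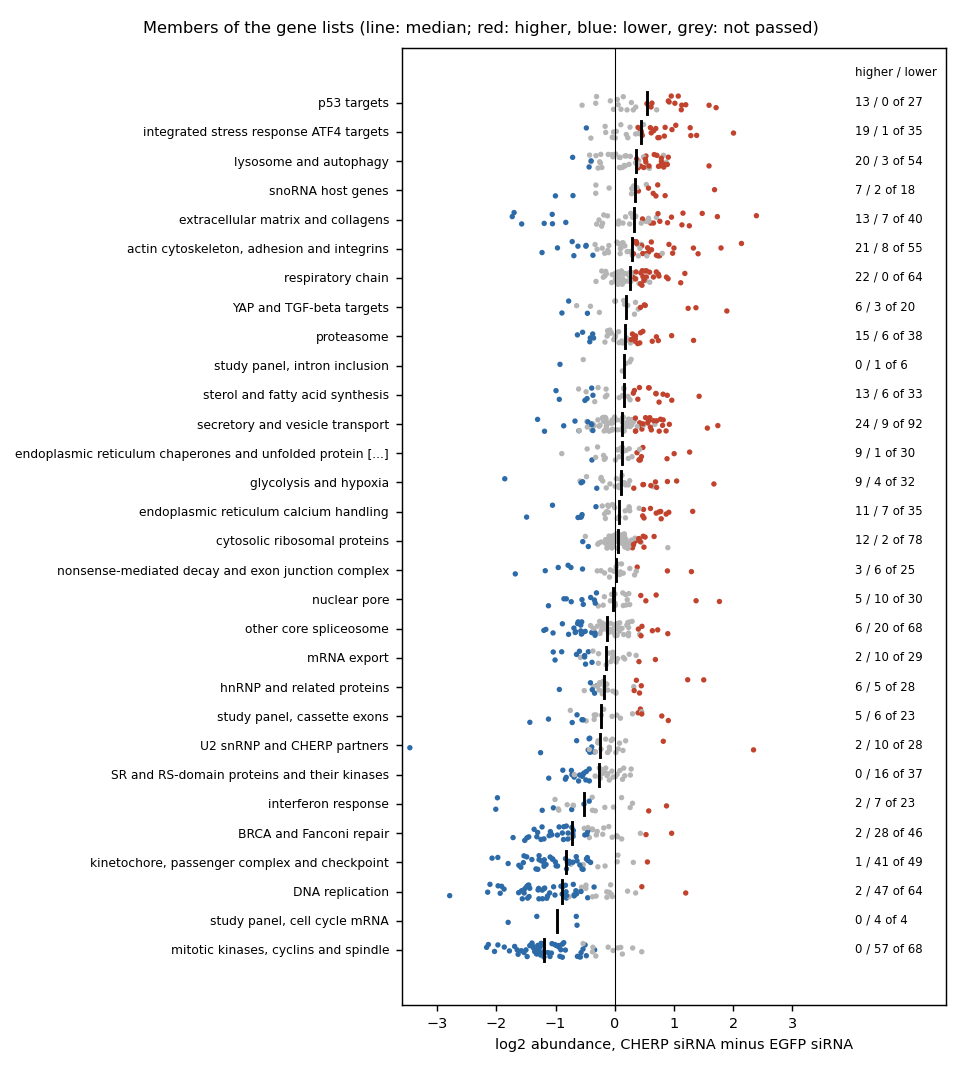
Each point is a tested member of a gene list at its log2 abundance difference (CHERP siRNA minus EGFP siRNA), red if higher, blue if lower and grey if it did not pass; the vertical bar is the median of the list and the figures at the right are higher and lower members of those tested. Medians lie well below 0 for the mitotic (−1.197), replication (−0.90), kinetochore (−0.83) and repair (−0.72) lists and above 0 for the p53 (0.54) and ATF4 (0.45) lists.

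The abundance of a gene was next set beside the change of its own splicing. Events were called by a quasi-binomial test of inclusion against skipping reads with a false discovery rate (FDR) under 0.05 within the event type. The spread of each event was set by the trend over events of similar depth, and not by its own libraries. Of 3717 retained intron (RI) events, 51 (1.37%) had increased intron inclusion (III) and 70 (1.88%) decreased intron inclusion (DII), where inclusion is the share of reads, per length, that hold the intron. Of 63977 SE events, 292 (0.456%) had increased exon inclusion (EI) and 279 (0.436%) exon skipping (ES). Reads of an SE event enter both measures, while RI reads enter only through SE, A5SS or A3SS events that overlap the intron.

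Of 49 tested III genes, 21 were lower, 4 were higher and the others did not pass, with a median of −0.29. Of 64 DII genes, 32 were higher, 5 were lower and the others did not pass, with a median of 0.42. Beside them, 1824 genes with an RI event and none changed held 295 higher and 301 lower genes with a median of 0.00. Changed genes were deeper, with a median of 2669 reads per library for III, 2781 for DII and 609 for the unchanged, and the calls rise with reads, so their part in these counts was not tested. When changed events and all events overlapping them were left out, III held 17 lower and 4 higher of 40, and DII 22 higher and 2 lower of 50. With a required inclusion difference of at least 0.1, III held 9 lower genes of 22 and DII 13 higher genes of 30. When changed events were chosen with no test, by a difference of at least 0.1 and no overlap between the groups, III held 30 lower and 19 higher of 129 (23.3% lower, median −0.10) and DII 25 higher and 11 lower of 121 (20.7% higher, median 0.16), nearer to the shares over all genes.

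The splice sites of introns of 7 genes with large inclusion differences and changed abundance are printed as examples of both classes. Each pair gives the 5′ site and then the 3′ site, read from hg19, with 6 exon bases in capitals and 24 intron bases in lower case.
TPTEP1 III (chr22:17095069-17095588, plus strand), 5′ site: TGGAGGgtaagtccatcccctgtttaatcg
TPTEP1 III, 3′ site: ttttatttgtcttattaatatcagAAGGCA
AKAP8L III (chr19:15514367-15514468, minus strand), 5′ site: CTATGGgtatggtatggccacttcacactc
AKAP8L III, 3′ site: cagtgccgattccgttttatccagAATTAA
RPGR III (chrX:38146499-38147113, minus strand), 5′ site: AAGTAGgtaatgacacaggccaggtgggac
RPGR III, 3′ site: attttaaatgtgatcgcttgtcagAGATCC
ITSN2 III (chr2:24426653-24427113, minus strand), 5′ site: CAGATGgtaagtgtcgctcagccaggggat
ITSN2 III, 3′ site: gactctcctgtgtttattcaccagATTTCC
TMEM41B DII (chr11:9302589-9304917, minus strand), 5′ site: TAACAGgtgcatccatttatgttttaaaat
TMEM41B DII, 3′ site: aatttttttttttgttaatggtagCTGCGA
PFKM DII (chr12:48528822-48529073, plus strand), 5′ site: AAGAATgttcgtatgaatgaagccagagag
PFKM DII, 3′ site: ctgtccctctgttggtcccttcagCTGGTG
ARL6IP4 DII (chr12:123465847-123466141, plus strand), 5′ site: CGGAGGgtgaggaccacaggcatcggggag
ARL6IP4 DII, 3′ site: cctcaccttctccctgcatcacagAGAGAA

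All 7 introns printed begin with GT and end with AG. Inclusion of the 615 nt RPGR intron was 0.034 and 0.045 in the EGFP libraries against 0.197 and 0.394 in the CHERP libraries, and the abundance of RPGR, a GTPase regulator of the cilium, was 5487 and 6836 against 3157 and 3280 (−0.93 ± 0.14, adjusted p = 0.000791). Inclusion of the 461 nt intron of ITSN2, an endocytic scaffold, was 0.074 and 0.019 against 0.417 and 0.179, and its abundance 1838 and 2592 against 756 and 901 (−1.39 ± 0.20, adjusted p = 0.00067). In both genes inclusion was higher and abundance lower in each CHERP library. AKAP8L followed the same pattern, with intron inclusion of 0.494 and 0.392 against 0.687 and 0.752 and an abundance difference of −0.88 ± 0.24 that was not called without the second CHERP library (adjusted p = 0.0602).

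TPTEP1, a noncoding transcript, went against the other 3 III genes printed. Its intron inclusion was 0.193 and 0.073 in the EGFP libraries against 0.687 and 0.575 in the CHERP libraries, and its abundance 269 and 398 against 663 and 924 (1.23 ± 0.30, adjusted p = 0.0103, and 0.117 without the second CHERP library). The other III genes that were higher were OGT (0.79), the O-GlcNAc transferase, MARS (0.45), the methionyl-tRNA synthetase, and RPAIN (0.37), an importer of RPA. OGT, MARS and RPAIN were picked after their values were seen.

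Among DII genes, inclusion of the 252 nt PFKM intron was 0.182 and 0.551 in the EGFP libraries against 0.103 and 0.092 in the CHERP libraries, and its abundance rose 3.19-fold, as given above. The control libraries differed widely in that inclusion. Inclusion of the 2329 nt intron of TMEM41B, an autophagy scramblase, was 0.726 and 0.71 against 0.456 and 0.409, with abundance of 2478 and 3786 against 4051 and 5855 (0.67 ± 0.21, adjusted p = 0.035, and 0.17 without the second CHERP library).

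The 5 DII genes that were lower included ARL6IP4, HMGN2 (−1.02), DDX46 (−0.42) and CPSF7 (−0.32), all but ARL6IP4 picked after their values were seen. ARL6IP4, an RNA-binding protein of speckles, had inclusion of 0.438 and 0.461 against 0.203 and 0.193 and an abundance difference of −0.47 ± 0.13 (adjusted p = 0.0198). The ARL6IP4 call was lost without either CHERP library (adjusted p = 0.171 and 0.0902) and with SE events alone (adjusted p = 0.157).

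**Figure D5:**
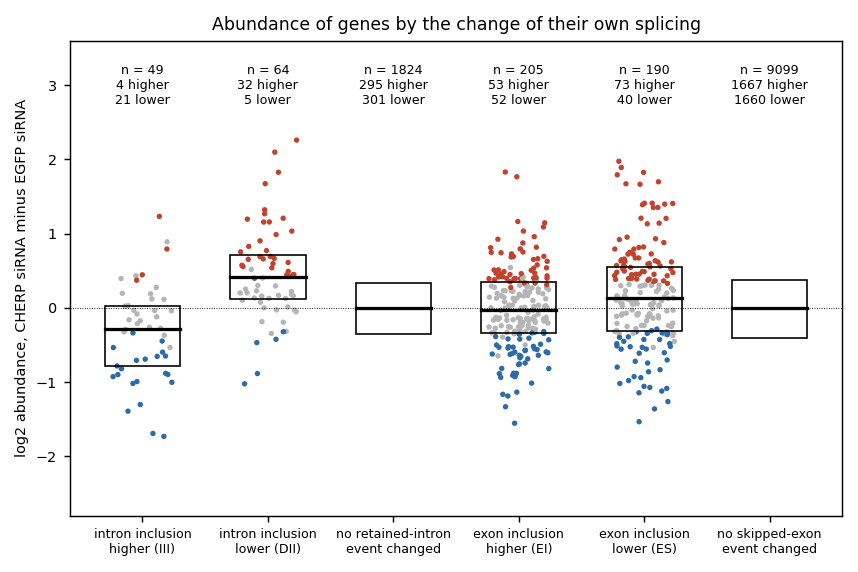
Log2 abundance difference (CHERP siRNA minus EGFP siRNA) of genes by the change of their own splicing; each point is a gene of a changed class, red if higher, blue if lower and grey if it did not pass, and boxes give the quartiles with the median as a thick line (genes with no changed event as boxes alone). The III median lies at −0.29 and the DII median at 0.42, against 0.00 for genes with no changed retained intron.

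The exon classes were read in the same way. Of 205 EI genes, 53 were higher and 52 were lower, with a median of −0.02. Of 190 ES genes, 73 were higher and 40 were lower, with a median of 0.13. Among 9099 genes with an SE event and none changed, 1667 were higher and 1660 were lower, with a median of 0.00. EI and ES genes had a median of 3802 and 2531 reads per library, against 469 for the unchanged. Without changed and overlapping events, EI held 29 higher and 32 lower genes of 143, and ES 43 higher and 24 lower of 139. Without the first CHERP library, 26 EI genes were higher and 33 lower and 47 ES genes were higher and 24 lower. Without the second, 23 EI genes were higher and 47 ES genes were higher and 24 lower, and without the first EGFP library 87 EI genes were lower.

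The 3 coding exons below are shown whole, and in each both the exon and the gene changed. Further exons chosen in this way were not printed because of a longer stretch, their chromosome or an overlap with an untranslated region. Capitals mark the exon, with 60 intron bases before and 20 after it, from hg19.
ACACA, exon of 24 nt (chr17:35567381-35567404, minus strand): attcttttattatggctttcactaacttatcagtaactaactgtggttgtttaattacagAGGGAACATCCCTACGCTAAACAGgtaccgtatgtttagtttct
PPP1R12A, exon of 132 nt (chr12:80199946-80200077, minus strand): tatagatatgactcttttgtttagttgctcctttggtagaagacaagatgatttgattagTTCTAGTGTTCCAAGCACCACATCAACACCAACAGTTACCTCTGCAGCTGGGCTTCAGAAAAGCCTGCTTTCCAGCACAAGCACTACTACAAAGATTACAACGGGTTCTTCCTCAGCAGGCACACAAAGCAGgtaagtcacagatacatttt
CD44, exon of 90 nt (chr11:35231512-35231601, plus strand): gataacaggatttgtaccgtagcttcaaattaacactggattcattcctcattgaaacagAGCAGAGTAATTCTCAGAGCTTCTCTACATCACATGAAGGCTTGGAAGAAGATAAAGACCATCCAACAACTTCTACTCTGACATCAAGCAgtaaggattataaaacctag

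These 3 exons are multiples of 3 nt long, so each leaves the reading frame as it is. Inclusion of the ACACA exon was 0.337 and 0.238 in the EGFP libraries against 0.861 and 0.894 in the CHERP libraries. The abundance of ACACA, acetyl-CoA carboxylase 1, was 6555 and 5990 against 7989 and 8432 (0.39 ± 0.12, adjusted p = 0.0256), a call that was lost without either CHERP library (adjusted p = 0.145 and 0.254). 

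Inclusion of the PPP1R12A exon was 0.792 and 0.949 in the EGFP libraries against 0.434 and 0.207 in the CHERP libraries, and the abundance of this myosin phosphatase subunit was 7212 and 8180 against 4586 and 4734 (−0.72 ± 0.12, adjusted p = 0.00179). Inclusion of the CD44 exon was 0.454 and 0.698 against 0.098 and 0.071, while CD44 abundance rose from 32097 and 35553 to 90288 and 88835 (adjusted p = 1.01e-05). Of the 49 CD44 events with at least 10 reads 36 moved the same way, and the difference of 1.41 from the summed events was 0.45 as the mean over events (adjusted p = 0.0106). Both exons were skipped, and the genes moved in opposite directions.

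Other exons named by the same rule were included more often. The 31 nt NAPG exon rose from 0.152 and 0.109 to 0.61 and 0.687, and NAPG abundance fell from 8599 and 9341 to 7038 and 7074 (−0.34 ± 0.12, adjusted p = 0.0425, and 0.282 and 0.267 without either CHERP library). Without its changed events NAPG was at −0.17 (adjusted p = 0.267). The 346 nt FBXL4 exon rose from 0.469 and 0.266 to 0.82 and 0.957, and FBXL4 abundance was 184 and 223 against 336 and 393 (0.81 ± 0.28, adjusted p = 0.0491, lost in 10 alternatives). The 65 nt TUSC3 exon rose from 0.267 and 0.368 to 0.836 and 0.861, with an abundance difference of 0.33 ± 0.11 (adjusted p = 0.0327, and 0.192 and 0.264 without either CHERP library). The lengths of these 3 exons are not multiples of 3, but the TUSC3 exon is not wholly coding, so its length does not give the frame.

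Among skipped exons, the 120 nt TLR4 exon went from 0.754 and 0.794 to 0.276 and 0.229 and TLR4 abundance from 876 and 729 to 398 and 426 (−0.94 ± 0.23, adjusted p = 0.0102, and 0.0677 without the first CHERP library). Without its changed events TLR4 was at −0.68 (adjusted p = 0.0824). The 502 nt SRD5A1 exon went from 0.667 and 1 to 0.256 and 0.047, and SRD5A1, steroid 5-alpha-reductase, rose from 187 and 88.8 to 471 and 499 (1.83 ± 0.34, adjusted p = 0.00272). The SRD5A1 difference was 2.44 without its changed events and 1.18 on reads not divided by length. Neither the TLR4 nor the SRD5A1 exon is wholly coding.

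Seen from the abundance side, 180 of the 1819 higher genes (9.90%), 141 of the 1768 lower genes (7.98%) and 293 of the 6073 genes that did not pass (4.82%) had a changed event of any type. Among genes called with at least 2-fold difference, 39 of 537 higher (7.26%) and 28 of 669 lower genes (4.19%) had one. Median reads were 897, 777.9 and 327 for the higher, lower and remaining genes, and 323 and 293 for the 2-fold classes. More than 9 in 10 called genes thus had no splicing change of their own that the test detected, and a change below its depth was not detectable. The study's rMATS test called more SE and RI events at an FDR under 0.05, so this share depends on the test.

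The genes that the study examined for splicing and for the cell cycle were read as 3 panels. These panels were chosen on these samples and are not independent evidence of direction. Of 6 genes of the intron panel, RPGR alone was lower, and CANT1 (−0.53), C1orf63 (0.28), DVL3 (0.25), PODXL (0.13) and SUPT7L (0.19) did not pass, while 2 were lower without the second EGFP library. Intron inclusion of SUPT7L, a subunit of the SAGA complex, was 0.867 and 0.928 in the EGFP libraries against 0.616 and 0.646 in the CHERP libraries, beside abundances of 6071 and 7210 against 7489 and 7557.

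Of 23 cassette exon genes, 5 were higher (among them ATG16L1, OGT, ZFAND1 and ZNF207), 6 were lower (CDCA7L, NUP62, PPP1R12A, AURKB, NUP50 and SKA3) and 12 did not pass. Without the first EGFP library 10 were lower. CDCA7L was 3782 and 3978 in the EGFP libraries against 1434 and 1422 in the CHERP libraries (−1.44 ± 0.14, adjusted p = 7.55e-05). Exon inclusion of MON2, a regulator of endosome traffic, went from 0.171 and 0.212 to 0.8 and 0.727 with an abundance of 4343 and 5736 against 4719 and 5543, where the groups overlapped. ZFAND1 and ZNF207 lost their calls without either CHERP library and SKA3 without the first.

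All 4 cell cycle genes of the panels were lower. CENPA is given above, BRCA1 was 9129 and 9181 against 3799 and 3541 (−1.32 ± 0.10, adjusted p = 2.28e-05), AURKB, the kinase of the passenger complex, was 8849 and 7510 against 5462 and 5015 (−0.64 ± 0.13), and BIRC5, survivin, was 14210 and 10634 against 7076 and 8653 (−0.65 ± 0.16, adjusted p = 0.0111, and 0.0733 without the first CHERP library).

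By quartile of gene span, from a median of 9475 to 147319 bases, the median difference went from −0.03 to 0.07, and 15.5% of the shortest and 21.2% of the longest quartile were higher, against 17.2% and 16.4% lower. By quartile of intron number the medians lay between −0.04 and 0.03. The share of calls rose with reads: 8.99% of the quartile with the fewest reads were higher and 12% lower, against 25.4% and 23.1% of the quartile with the most. Of 9164 protein-coding genes 1733 were higher and 1703 lower, and of 249 lncRNAs 46 and 41. Of 103 transcribed unprocessed pseudogenes, 18 were higher and 5 lower, and reads of such copies can come from their parent genes.

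The cytoplasmic libraries, from cells with the same siRNAs and with 4321336 to 5307743 reads on events each, gave 7293 testable genes, of which 24.9% were higher and 23.9% lower there. Of the whole-cell higher genes, 1487 were tested in the cytoplasm, and 1198 (80.6%) were called higher there too, which is 67.8% of the cytoplasmic higher calls that were tested in whole cells. Of the lower genes, 1342 were tested and 1140 (84.9%) were called lower, which is 67.2% of the cytoplasmic lower calls. None of the lower genes and 1 of the higher genes, OGT, was called in the other direction. With at least 100 reads in the cytoplasm the shares were 87.3% and 94.6%.

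The genes that led in whole cells differed in the same direction in the cytoplasm where they are given here. MMP3 was at 3.69 there, IL1RL1 at 3.98, DAW1 at 4.13, LIMCH1 at −2.78 and ZNF268 at −2.10. For the lists, 47 mitotic genes were lower and none was higher (median −1.22), and replication genes had 45 lower and 2 higher (median −0.96). Of the III genes 24 of 41 were lower and 5 higher, and of the DII genes 34 of 59 were higher and 4 lower. Of the p53 targets 10 were higher and 2 lower there, with a median of 0.27 against 0.54 in whole cells, and of 18 YAP and TGF-beta targets 5 were higher and 2 lower, with a median of −0.05 against 0.19. SR and RS-domain genes were lower in 26 cases and higher in 1, with a median of −0.62 against −0.26 in whole cells. These differences between the fractions were not tested.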

How the data were processed

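The series held rMATS tables of alternative splicing events for whole-cell and cytoplasmic poly(A) RNA (TruSeq Stranded mRNA). The authors mapped reads to hg19 (STAR 2.5.2b and RSEM 1.2.25 are named per the labels); the rMATS version is not given in the sources used here. Each deposited cell holds inclusion or skipping read counts of 2 libraries, with no replicate number. The authors' own p-values, FDRs and inclusion differences were not used, nor were 20 columns of per-library inclusion levels or a table of the authors' differential expression test in cytoplasm (fold changes, posterior probabilities and group means). Cytoplasmic mutually exclusive exon and RI tables were not used here. Reads on SE, A5SS and A3SS events were divided by effective length, summed per gene, and scaled by median ratios. Because sums per length are not counts, log2(abundance + 0.01 per base) was fitted with limma 3.58.1 (R 4.3.3; trended variance) and Benjamini-Hochberg adjustment over all genes whose mean reached 20 reads, which understates the change of low genes. Splicing was tested by a quasi-binomial model. Scripts were tested on simulated data.

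The members and lists were chosen with earlier results of these data known. Named were CHERP, the 12 largest rises and falls with at least 100 reads in the higher group, up to 4 called members per list with the largest differences, up to 4 genes per splicing class, and the panels; some genes that this rule names are not reported here. Other genes were named after their values were seen. In all, 17 alternatives were run.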

Additional observations from a re-analysis of the deposited data

Results flagged for a closer look

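The direction of 2 genes differed between whole cells and cytoplasm, with every CHERP siRNA library of one fraction above the EGFP siRNA libraries and every CHERP siRNA library of the other below them. The difference between fractions was not tested in either gene. OGT, the O-GlcNAc transferase, was higher in whole cells (0.79, adjusted p = 0.000462 by limma) and lower in the cytoplasm (−0.52, adjusted p = 0.00138). SIK3, a salt-inducible kinase, was at −0.48 in whole cells (adjusted p = 0.0765 by limma) and at 0.73 in the cytoplasm (adjusted p = 0.00249).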

How the results depend on the processing

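No paired analysis was possible because the deposited cells carry no replicate number. No called gene among those named changed sign under the 17 alternatives, while MON2 (−0.17 to 0.24) and PODXL (−0.11 to 0.36), which did not pass, did. Scaling by library totals gave 1644 higher and 1961 lower genes against 1819 and 1768, and the EI median of −0.02 became 0.00 with all 5 event types and 0.03 without the second EGFP library. Leaving out 1 library in turn gave 2196 to 5045 called genes, 1046 to 2514 higher and 1144 to 2531 lower; where 1 library was left, it was assumed to vary like the other group. Higher ATF4 targets numbered 10 to 23 and higher respiratory chain genes 11 to 33 in these fits, and 12 and 7 without the trend of the variance. With an inclusion difference of at least 0.1, 9 III genes were lower, 13 DII genes higher, 32 EI genes higher and 45 ES genes higher. Leaving out 1 library gave 23 to 78 higher and 33 to 87 lower EI genes, and 47 to 83 higher and 24 to 54 lower ES genes. Without the trend, EI held 19 higher and 31 lower genes and ES 47 higher and 22 lower. Without changed and overlapping events these were 29, 32, 43 and 24, and with no test of splicing (a difference of at least 0.1 and no overlap) 155, 184, 228 and 204. The cause of these shifts was not tested. Of 175 named genes, 21 lost their call without the first CHERP library, 18 without the second and 15 without the trend. Calls were fewer among genes with few reads, and levels rest on alternative splicing events alone, so genes without such an event were not analysed here.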
